A study of Mus musculus with 10 samples.

Results

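Among the 10 cutaneous tumors profiled by RNA-seq, 7 held *Vim*, the intermediate filament of mesenchymal cells, at 2000 FPKM or more (fragments per kilobase of gene, scaled to the total of the library, as deposited), and these 7 still differed widely in *Krt14*, the type I keratin of basal keratinocytes. The 7 tumors were ranked by *Krt14*, whatever their genotype, and the 3 highest are called keratin-retaining and the 3 lowest keratin-poor. The keratin-retaining tumors were wild-type tumor 2 and *Ldha*-null tumors 2 and 5, and the keratin-poor tumors were *Ldha*-null tumor 4 and wild-type tumors 4 and 1. Wild-type tumor 3 had the middle rank and entered neither group, and wild-type tumor 5 had less *Vim* than the limit, as did *Ldha*-null tumors 1 and 3. Because the groups were chosen by measured *Krt14* and *Vim*, these genes were not tested, and every p below is an association with *Krt14* rank in the same libraries, not the effect of a treatment.

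Keratins are built as obligate pairs of a type I and a type II chain, so that *Krt14* polymerizes with *Krt5* in the basal layer, *Krt10* with *Krt1* in the suprabasal layers, *Krt16* and *Krt17* with *Krt6a* and *Krt6b* in wounded or hyperproliferative epidermis, and *Krt18* with *Krt8* in simple epithelia. Squamous carcinomas can lose this program and take on vimentin, spindle shape and matrix genes, a shift known as epithelial-mesenchymal transition (EMT). Transcription factors of the Snail, Zeb and Twist families repress *Cdh1* (E-cadherin) during EMT, whereas *Trp63* and *Grhl2* hold the epidermal program.

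The 10 tumors came from 10 mice by the series description, 5 labelled LDHA-/- (*Ldha*-null) and 5 wild type, of mixed C57BL6/FVB background. The study induced tumors in hair follicle stem cells genetically, with loss of *p53*, by Cre under the *Krt15* or *Lgr5* promoter, or by DMBA and TPA, and which of these gave the sequenced tumors is not stated. Deletion of *Ldha* followed the same Cre and was mosaic in some tumors. Whole fresh tumors were extracted without sorting, so that fewer cells of a type and less RNA per cell cannot be told apart, although the labels name squamous carcinoma cells. Total counts were 12969508 to 17694201 per tumor, and no pair of the 6 compared libraries was alike within counting noise. The deleted gene did not follow the labels in these 7 tumors. *Ldha* stood at 246, 324 and 542 FPKM in those labelled *Ldha*-null (tumors 2, 5 and 4) whereas wild-type tumors 2, 3, 4 and 1 had 340, 345, 589 and 390 FPKM, and the ranges overlapped. *Xist*, the RNA of the inactive X chromosome, was at 0.112 FPKM in wild-type tumor 1, whereas the other 6 of these tumors had 33.2 FPKM or more. The Y-linked *Ddx3y*, chosen after its values were seen, was at 6.42 FPKM in wild-type tumor 1 and did not exceed 0.0848 FPKM in the other 6, so that a library of the other sex pattern lay in the keratin-poor group.

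The selecting values set the scale. *Krt14* was at 2830, 2112 and 1337 FPKM in the keratin-retaining tumors, at 663 FPKM in the middle tumor and at 550, 359 and 138 FPKM in the keratin-poor tumors. Just inside and just outside the groups the values were 1337 against 663 FPKM above and 550 against 663 FPKM below, so the middle tumor lay close to the upper end of the keratin-poor group. The mean of *Krt14* was 6.0-fold higher in the keratin-retaining than in the keratin-poor tumors. *Vim* ran from 4101 FPKM in *Ldha*-null tumor 2 to 6043 FPKM in wild-type tumor 1, a 1.47-fold range, and the tumor just outside the limit, wild-type tumor 5, had 1485 FPKM. The word retaining is relative: *Krt14* was at 4195, 28399 and 28691 FPKM in the 3 tumors with low *Vim*, above all 7.

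The 3 other epithelial markers followed *Krt14* in part. *Krt5* (ENSMUSG00000061527, mm10 chr15:101707070-101712891), the partner of *Krt14*, was at 528, 249 and 368 FPKM in wild-type tumor 2 and *Ldha*-null tumors 2 and 5, and at 189, 89.3 and 44.1 FPKM in *Ldha*-null tumor 4 and wild-type tumors 4 and 1. The groups did not overlap, and the edgeR estimate was a log2 fold change of 1.73 ± 0.50 (SE; unadjusted p = 0.00737, adjusted p = 0.190), or 3.31-fold. *Trp63*, the transcription factor that founds stratified epithelium, was at 5.23, 2.76 and 6.67 FPKM against 2.58, 1.79 and 1.06 FPKM, again without overlap (log2 fold change 1.31, adjusted p = 0.213). *Cdh1* was at 17.4, 6.81 and 17.8 FPKM against 7.15, 4.17 and 3.85 FPKM, and here *Ldha*-null tumor 2 of the keratin-retaining group lay below *Ldha*-null tumor 4 of the keratin-poor group. Against the tumors with low *Vim* all of these levels were modest: *Krt5* stood at 647 to 5787 FPKM, *Trp63* at 13.4 to 70.6 FPKM and *Cdh1* at 14.4 to 76.0 FPKM there, and the *Cdh1* levels of wild-type tumor 2 and *Ldha*-null tumor 5 exceeded only the lowest of these. That lowest value was of *Ldha*-null tumor 1, a library that stood apart, with 12 skeletal muscle genes summing to 107282 FPKM against 51.4 and 51.7 FPKM in the other 2 tumors with low *Vim*.

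**Figure D1:**
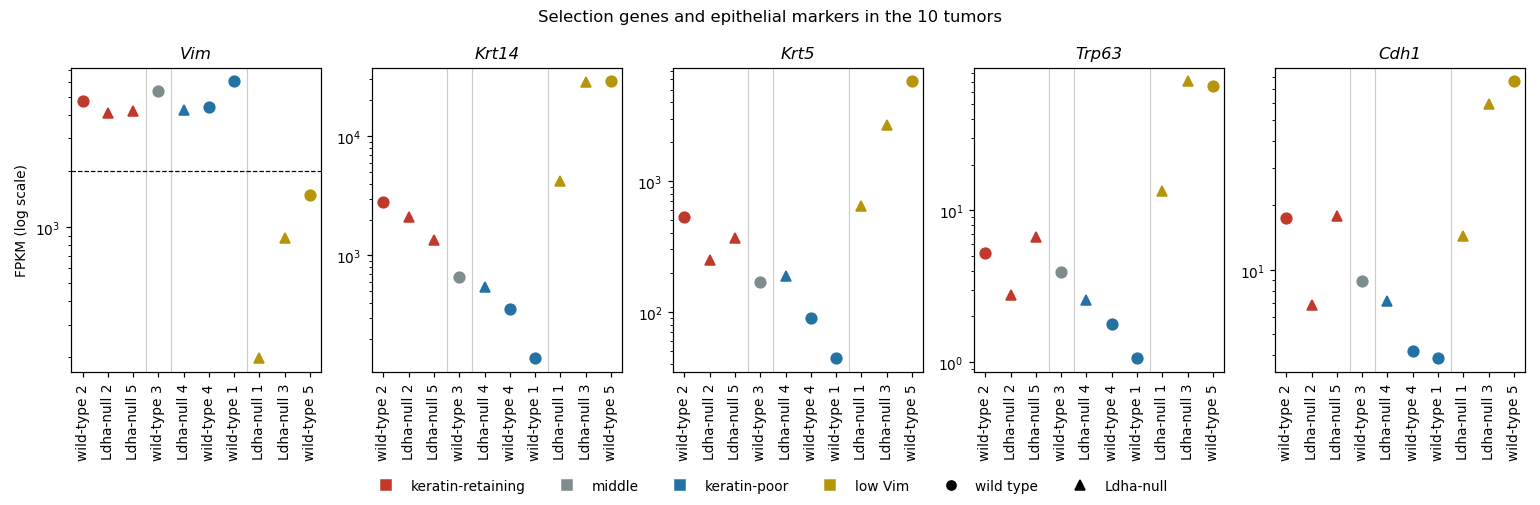
Level in FPKM (log axis) of *Vim*, *Krt14*, *Krt5*, *Trp63* and *Cdh1* in each of the 10 tumors, ordered by group and, within the 7 tumors with high *Vim*, by falling *Krt14*; color gives the group, shape the genotype label, and the dashed line the *Vim* limit of 2000 FPKM. *Krt5* and *Trp63* of the 3 keratin-retaining tumors lie above those of the 3 keratin-poor tumors, and *Cdh1* overlaps through *Ldha*-null tumor 2 at 6.81 FPKM.

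Over all genes the contrast was broad but weak beside the spread of single tumors. Of 15530 genes tested by edgeR's quasi-likelihood test, 0 (0%) passed an adjusted p of 0.05, the smallest adjusted p being 0.0690. At an unadjusted p under 0.05, 1209 genes (7.78%) were higher and 1165 genes (7.5%) lower in the keratin-retaining tumors. Together these are 2374 genes, where 5% of those tested, both directions together, is 776 genes. DESeq2 called 691 genes and limma-voom with sample weights 741 genes at an adjusted p of 0.05, of which 509 were called by both (73.7% of the former and 68.7% of the latter). Every keratin-retaining tumor lay above every keratin-poor tumor for 1598 genes (10.3%) and below for 1552 genes (9.99%), by log2 CPM (counts scaled to library size) with TMM factors, a measure by which overlap can differ slightly from that of FPKM. With 3 tumors against 3, an exact two-sided permutation test of one gene cannot go below 0.1. The counts of listed genes that follow use the unadjusted p and are to be read against these shares. Higher and lower refer to the keratin-retaining tumors throughout, and no listed gene passed the adjusted test by edgeR, whereas DESeq2 and limma-voom called some, such as 8 and 6 of 15 cornified genes and 4 and 8 of 14 glycolysis genes. Counts of 3 or fewer in a list moved by at most 2 genes when a tumor was left out, except where stated.

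Of 33 listed keratins besides *Krt14*, 19 were abundant enough to test, 8 were higher at an unadjusted p under 0.05 and 3 lower. *Krt16* was at 552, 276 and 306 FPKM in the keratin-retaining tumors and at 102, 28.6 and 8.96 FPKM in the keratin-poor ones (log2 fold change 2.94, adjusted p = 0.171 by edgeR). *Krt6b* was at 384, 209 and 163 FPKM against 62.6, 9.95 and 4.62 FPKM (3.22, adjusted p = 0.181), and *Krt6a* at 234, 228 and 118 FPKM against 90.6, 32.7 and 16.3 FPKM (1.97, adjusted p = 0.192). None of these 3 wound keratins overlapped between the groups, and *Ldha*-null tumor 4 was the highest keratin-poor tumor for each. *Krt17* overlapped, at 251, 199 and 520 FPKM against 225, 131 and 19.7 FPKM. *Krt6a* and *Krt6b* are close copies, and *Krt16* and *Krt17* share stretches with *Krt14*, so how reads were split among them is uncertain, and its part in these values was not tested.

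Of 4 listed suprabasal keratins 3 had the same order. *Krt1* was at 77.8, 38 and 150 FPKM against 29.2, 8.09 and 5.40 FPKM (log2 fold change 2.52, adjusted p = 0.178 by edgeR). Its partner *Krt10* was at 19.0, 19.4 and 42.3 FPKM against 15.7, 6.37 and 4.80 FPKM, a narrower gap of 1.47 on the log2 scale. *Krt78*, another type II keratin of stratified epithelium, was at 1.8, 0.810 and 0.600 FPKM against 0.175, 0.0494 and 0.0508 FPKM, low throughout. *Krt77* overlapped, at 0.0465, 2.43 and 2.23 FPKM against 1.52, 0.656 and 0.0397 FPKM, and its log2 fold change of 0.99 turned to -0.72 with genotype as a covariate.

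Of 5 tested simple epithelial keratins 1 was higher and 2 lower. The pair of *Krt8* and *Krt18* was lower. *Krt8* was at 1.62, 83.4 and 140 FPKM in the keratin-retaining tumors and at 425, 269 and 431 FPKM in the keratin-poor ones, without overlap (log2 fold change -2.44, adjusted p = 0.317 by edgeR), and the middle tumor was between them at 184 FPKM. *Krt18* was at 2.68, 8.03 and 12.1 FPKM against 64.4, 8.68 and 65.7 FPKM, the level in wild-type tumor 4 being within the range of the keratin-retaining tumors. *Krt23* of the same list was higher, at 0.740, 1.11 and 0.852 FPKM against 0.578, 0.217 and 0.149 FPKM, and *Krt7* overlapped (log2 fold change 0.81). *Krt76*, a keratin of oral and other inner stratified epithelium, was at 0.118, 0.501 and 0.210 FPKM against 4.01, 11.9 and 3.87 FPKM, 25.4-fold more in the keratin-poor tumors (log2 fold change -4.67, adjusted p = 0.0864). *Krt15*, a keratin of hair follicle stem cells whose promoter drives one of the Cre lines, was at 13.7, 26.3 and 74.3 FPKM against 27.6, 15.3 and 27.7 FPKM. Its sign turned without *Ldha*-null tumor 5, from 0.57 to -0.26 on the log2 scale. The 8 tested keratins that passed no threshold, *Krt15* and *Krt17* among them, had log2 fold changes of -0.33 to 1.24, of which those of 4 (*Krt15*, *Krt75*, *Krt77* and *Krt80*) changed sign under some alternative, and the 14 untested keratins, mostly of the hair shaft and inner root sheath, were at most at 2.92 FPKM.

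**Figure D2:**
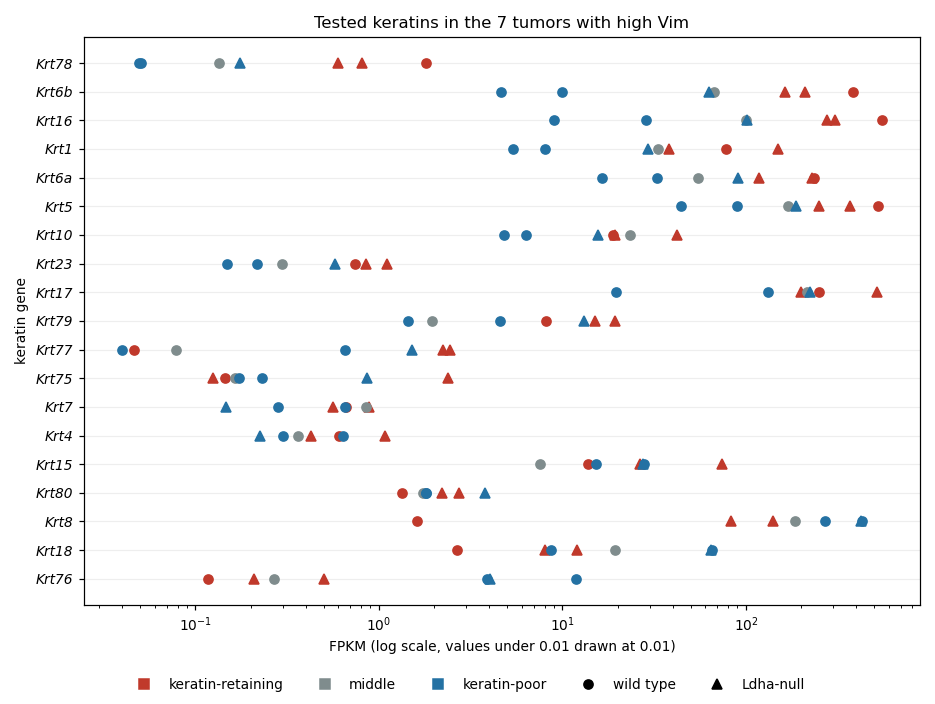
FPKM (log axis) of the 19 tested keratins in the 7 tumors with high *Vim*, sorted by the log2 fold change between the groups; each point is 1 tumor, colored by group and shaped by genotype label. *Krt78*, *Krt6b*, *Krt16*, *Krt1* and *Krt6a* are at the top, with *Krt8*, *Krt18* and *Krt76* at the bottom, where the keratin-poor tumors are to the right.

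Genes of terminal differentiation lay on the keratin-retaining side. Of 15 suprabasal and cornified genes, 11 were higher at an unadjusted p under 0.05 and 0 lower, with a median log2 fold change of 1.89, where the median of all genes was 0.00094. *Flg* (ENSMUSG00000081977, chr3:93273541-93293691), the precursor of filaggrin that packs keratin in the cornified layer, was at 46.0, 43.8 and 48.7 FPKM against 11.4, 6.48 and 3.96 FPKM, 5.91-fold (log2 fold change 2.56 ± 0.35, adjusted p = 0.0770 by edgeR). The 3 keratin-retaining tumors were thus nearly equal in *Flg*, and the middle tumor, at 9.73 FPKM, lay among the keratin-poor ones. *Klk7*, a protease that sheds corneocytes, was at 68.3, 33.5 and 52.2 FPKM against 10.7, 8.03 and 2.43 FPKM. *Dsg1a*, a desmosomal cadherin of upper layers, was at 4.80, 2.40 and 3.28 FPKM against 1.02, 0.467 and 0.266 FPKM. Neither gene overlapped between the groups.

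Several genes of the same layers were among the 10 with the smallest p in the higher direction. *Calm4*, a calmodulin-like protein of differentiating keratinocytes, was at 253, 174 and 212 FPKM against 28.8, 15 and 4.96 FPKM (log2 fold change 3.61, adjusted p = 0.0864 by edgeR). *Hrnr* (hornerin), a relative of filaggrin, was at 0.798, 0.514 and 0.499 FPKM against 0.0828, 0.0362 and 0.0319 FPKM. *Fabp5*, the epidermal fatty acid binding protein, was at 257, 123 and 184 FPKM against 46.0, 27.2 and 27.5 FPKM (2.38, adjusted p = 0.0770). *Blmh*, a protease that takes part in the breakdown of filaggrin, was at 48.8, 37.7 and 42.9 FPKM against 18.6, 12.0 and 12.3 FPKM. The summed level of the 15 cornified genes was 260 to 534 FPKM in keratin-retaining, 224 FPKM in the middle and 40.1 to 236 FPKM in keratin-poor tumors, against 1030 to 7919 FPKM in the tumors with low *Vim*. With each tumor left out in turn, the count at an unadjusted p under 0.05 was 8 to 13 of the 15 genes.

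Of 10 basal keratinocyte genes 3 were higher and 1 lower, with a median log2 fold change of 0.61, and with *Krt14* as a continuous level over 7 tumors 5 were higher and 0 lower. Besides *Krt5* and *Trp63* the third was *Sfn*, an epithelial 14-3-3 protein, at 123, 99.9 and 106 FPKM against 90, 47.6 and 27.9 FPKM. The gene that was lower, *Itgb4*, encodes the beta chain of the hemidesmosomal integrin, and stood at 51.5, 36.8 and 53.6 FPKM against 166, 126 and 50.4 FPKM (log2 fold change -1.38, adjusted p = 0.190 by edgeR). Wild-type tumor 1, the tumor with least *Krt14*, lay with the keratin-retaining tumors in its *Itgb4* FPKM. Of 10 genes of basement membrane adhesion 2 were lower and 0 higher, with a median of -0.23 that turned to 0.06 without *Ldha*-null tumor 4. *Itga3*, the alpha chain of a laminin receptor, was at 18.0, 32.0 and 36.6 FPKM against 94.6, 67.0 and 81.6 FPKM, without overlap (-1.60, adjusted p = 0.109).

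Cell junctions and the factors that maintain epithelium were higher in part. Of 10 desmosome genes 6 were higher and 0 lower, with a median log2 fold change of 0.91. *Dsc3*, a desmosomal cadherin, was at 5.64, 4.99 and 4.53 FPKM against 2.06, 1.42 and 0.570 FPKM. *Perp*, a desmosomal membrane protein that *Trp63* regulates, was at 139, 77.1 and 122 FPKM against 59.7, 64.7 and 45.5 FPKM. *Dsp* (desmoplakin), which anchors keratins, was at 20.3, 9.48 and 19.1 FPKM against 9.54, 2.93 and 1.74 FPKM, with *Ldha*-null tumors 2 and 4 level. Without wild-type tumor 4 the desmosome count was 3, the lowest with a tumor left out.

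Of 11 tested genes of adherens and tight junctions 4 were higher, among them *Cldn4*, a claudin, at 1.81, 1.28 and 3.55 FPKM against 1.07, 0.187 and 0.161 FPKM. Without *Ldha*-null tumor 5, wild-type tumor 1 or wild-type tumor 4 this count was 2. Of 14 tested epithelial transcription and splicing regulators 4 were higher and 0 lower, with a median of 1.29. The summed level of the list did not differ, at 140 to 291 FPKM in keratin-retaining and 187 to 263 FPKM in keratin-poor tumors. *Ldha*-null tumor 2 had the 140 FPKM, below every keratin-poor tumor. *Grhl2* was at 2.34, 1.14 and 2.29 FPKM against 0.885, 0.356 and 0.244 FPKM. *Ehf*, an epithelial ETS factor, and *Esrp1*, which directs epithelial splicing, overlapped because of *Ldha*-null tumor 2, at 1.54 and 3.09 FPKM. The regulator count was 9 without *Ldha*-null tumor 2, 2 without wild-type tumor 2, and 11 without *Ldha*-null tumor 4.

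The EMT transcription factors did not move as 1 group. Of 9 tested, 2 were higher and 1 lower, with a median of -0.02. *Snai1* was at 6.60, 25.4 and 11.8 FPKM in the keratin-retaining tumors and at 46.8, 44.6 and 36.8 FPKM in the keratin-poor tumors, without overlap (log2 fold change -1.64, adjusted p = 0.182 by edgeR). *Foxc2* was higher, at 15.7, 10.1 and 23.3 FPKM against 6.13, 1.64 and 7.17 FPKM, and so was *Zeb2*, by less, at 53.4, 36.5 and 41.2 FPKM against 32.6, 28.7 and 26.2 FPKM. *Twist1* overlapped at 114, 71.5 and 138 FPKM against 124, 149 and 128 FPKM. The list had summed levels of 394 to 608 FPKM in keratin-retaining and 453 to 589 FPKM in keratin-poor tumors, above the 89.4 to 228 FPKM of the tumors with low *Vim*.

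Mesenchymal effector genes lay mainly on the keratin-poor side. Of 14 tested 4 were lower and 0 higher in keratin-retaining tumors, and the log2 fold change was negative for 12, the median being -0.52. *S100a4*, a calcium binding protein of migrating cells, was at 1194, 3678 and 1750 FPKM against 4436, 6809 and 4607 FPKM, and did not overlap (-1.36, adjusted p = 0.214 by edgeR). *Vcan* (versican), a matrix proteoglycan, was at 36.1, 48.7 and 82.4 FPKM against 78.3, 128 and 75.1 FPKM. *Itgb3*, an integrin chain, was at 5.27, 6.88 and 4.10 FPKM against 17.8, 30.0 and 5.64 FPKM, and *Fn1* (fibronectin) at 443, 923 and 374 FPKM against 1301, 1151 and 840 FPKM. *Ldha*-null tumor 2 was the keratin-retaining tumor with the most *S100a4*, *Fn1* and *Snai1*. Without it 7 of the 14 genes were lower at an unadjusted p under 0.05, and without wild-type tumor 4 only 1 was, or 2 without wild-type tumor 2. Markers of fibroblasts, pericytes, endothelium, lymphatic endothelium, mast cells, skeletal muscle and red cells gave 0 genes at an unadjusted p under 0.05 in either direction by edgeR, and DESeq2 and limma-voom called 0 of them. Without wild-type tumor 1, however, 4 of the 5 red cell genes were higher. Fibroblast genes summed to 1200 to 1329 FPKM in keratin-retaining and 1125 to 2009 FPKM in keratin-poor tumors.

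**Figure D3:**
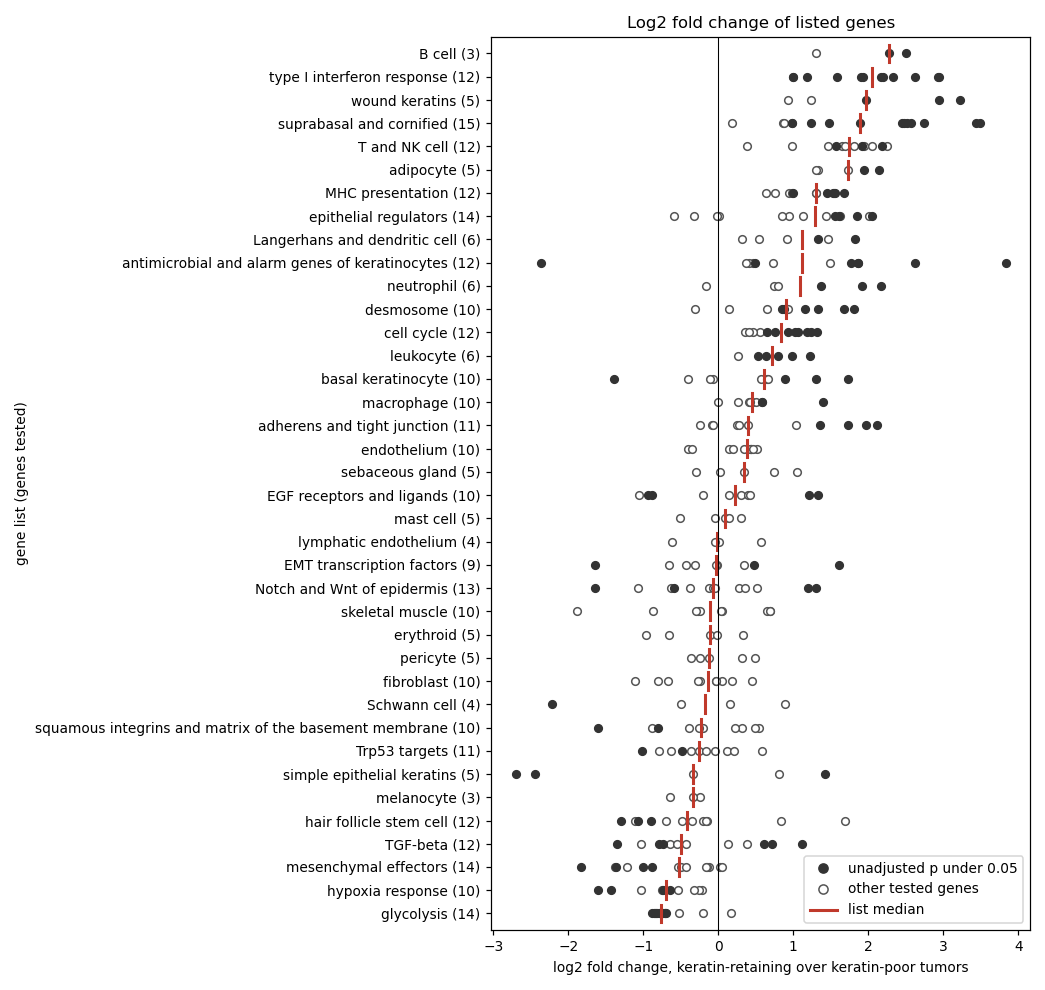
Log2 fold change of keratin-retaining over keratin-poor tumors for every tested gene of 38 gene lists with at least 3 tested genes; filled points have an unadjusted p under 0.05, and red bars mark list medians. The B cell list, with 3 tested genes, has the highest median at 2.28, interferon, wound keratin and cornified lists have medians of 1.89 to 2.05, and mesenchymal, hypoxia and glycolysis lists have the lowest medians, down to -0.76.

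Genes that type I interferon induces also lay on the keratin-retaining side. All 12 listed genes had a positive log2 fold change, 11 were higher at an unadjusted p under 0.05, and the median was 2.05. *Ifit1* (ENSMUSG00000034459, chr19:34640871-34650009), a binder of foreign RNA, was at 11.6, 46.0 and 38.8 FPKM against 8.21, 2.92 and 0.657 FPKM (log2 fold change 2.94, adjusted p = 0.184 by edgeR). *Ifit2* was at 10.7, 35.3 and 27.1 FPKM against 6.72, 4.23 and 7.08 FPKM, *Oasl2*, of the oligoadenylate synthetase family, at 29.5, 83.8 and 61.6 FPKM against 27.7, 9.82 and 6.63 FPKM, and *Rsad2* (viperin) at 4.09, 22.3 and 9.88 FPKM against 2.91, 1.54 and 3.10 FPKM. None of the 4 overlapped, yet wild-type tumor 2, which had the most *Krt14*, was the lowest of the keratin-retaining tumors in each. Hence interferon genes did not follow the order of *Krt14* within the group. Summed levels were 158, the lowest, to 642 FPKM in keratin-retaining tumors, 229 FPKM in the middle tumor and 46.2 to 155 FPKM in keratin-poor tumors. With each tumor left out in turn the count at an unadjusted p under 0.05 was 8 to 12, while limma-voom called 0 and DESeq2 5 of the 12 at an adjusted p of 0.05. *Tlr3*, a receptor for double-stranded RNA and among the 10 smallest p in its direction, was at 3.98, 4.50 and 5.18 FPKM against 1.5, 1.30 and 1.47 FPKM.

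Promoters of such genes often carry the interferon-stimulated response element, the site that the interferon-activated complex ISGF3 and interferon regulatory factors bind. The RefSeq windows of 250 bases before to 50 bases after the start site (GRCm38.p6, the build of mm10) were searched on both strands for GAAANNGAAA, and 6 of the 9 interferon genes with a window held it, against 3.44% of all 32851 windows. The windows of *Ifit1* (chr19:34640639-34640938, plus strand) and *Isg15* (chr4:156200769-156201068, minus strand), an interferon-induced ubiquitin-like modifier of the same list, are shown because they carry 2 and 3 matches, in capitals, those of *Isg15* overlapping. Each is written 5′ to 3′ in the sense of its gene.
Ifit1: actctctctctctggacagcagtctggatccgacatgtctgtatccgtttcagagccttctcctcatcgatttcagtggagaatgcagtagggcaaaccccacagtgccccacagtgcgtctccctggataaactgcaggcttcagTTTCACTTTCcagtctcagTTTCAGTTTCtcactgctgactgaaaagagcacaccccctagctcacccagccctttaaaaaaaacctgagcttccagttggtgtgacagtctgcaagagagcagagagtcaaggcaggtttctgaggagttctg
Isg15: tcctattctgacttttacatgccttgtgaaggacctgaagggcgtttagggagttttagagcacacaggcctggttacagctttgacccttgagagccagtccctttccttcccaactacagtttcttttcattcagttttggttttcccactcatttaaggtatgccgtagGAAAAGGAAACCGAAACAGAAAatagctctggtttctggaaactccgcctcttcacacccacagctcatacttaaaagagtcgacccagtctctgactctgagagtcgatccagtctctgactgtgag
A match is a description of these letters, and binding was not measured here.

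Antigen presentation lay on the same side. All 12 genes of the MHC class I and II list had a positive log2 fold change and 5 were higher at an unadjusted p under 0.05, with a median of 1.30. *B2m* (ENSMUSG00000060802), the shared light chain of class I, was at 2624, 1521 and 2750 FPKM against 936, 530 and 530 FPKM, 3.20-fold (adjusted p = 0.118 by edgeR). *H2-K1*, a class I heavy chain with close relatives that make its counts uncertain, was at 999, 734 and 1114 FPKM against 554, 237 and 123 FPKM, and *Psmb8*, an immunoproteasome subunit, at 94.0, 55.1 and 96.0 FPKM against 44.3, 20.3 and 12.7 FPKM. *Ldha*-null tumor 2 was the lowest keratin-retaining tumor for all 3 of these, the opposite of its place for *Ifit1*. Without *Ldha*-null tumor 4 all 12 genes were higher at an unadjusted p under 0.05, and without wild-type tumor 1 or 4 only 3 were.

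Leukocyte genes moved with these results, and their part in the interferon and MHC values was not tested. Of 6 pan-leukocyte genes 5 were higher, with a median of 0.72 and summed levels of 1056 to 1262 FPKM against 645 to 827 FPKM, without overlap, and 1118 FPKM in the middle tumor. *Ptprc* (CD45) was at 39.0, 37.8 and 34.7 FPKM against 17.9, 15.4 and 11.4 FPKM (log2 fold change 1.22 ± 0.22, adjusted p = 0.112 by edgeR), and *Cd52* at 516, 349 and 437 FPKM against 242, 169 and 199 FPKM. The count was 3 without wild-type tumor 4. Of 12 T and NK cell genes all were positive and 3 were higher, *Klrd1* (CD94), a receptor of NK cells, being at 17.5, 6.25 and 17.0 FPKM against 5.14, 2.89 and 4.71 FPKM. That count ran from 1 without wild-type tumor 2 to 8 without *Ldha*-null tumor 2 and 10 without *Ldha*-null tumor 4. Of 10 macrophage genes 2 were higher, and *Emr1* (F4/80) was set by *Ldha*-null tumor 2, at 21.5, 47.6 and 11.9 FPKM against 9.76, 10.6 and 8.82 FPKM. Without that tumor 0 macrophage genes were higher, and 9 were without *Ldha*-null tumor 5.

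Other leukocyte classes gave smaller lists. *Cd207* (langerin), the marker of Langerhans cells of the epidermis, was at 2.76, 1.63 and 1.31 FPKM against 0.473, 0.480 and 0.532 FPKM, and 2 of 6 genes of its list were higher. Of 6 tested neutrophil genes 3 were higher, yet *S100a9*, which keratinocytes also make, was at 934, 169 and 1040 FPKM against 164, 194 and 71.1 FPKM, with *Ldha*-null tumor 2 among the keratin-poor tumors. Of 3 tested B cell genes 2 were higher. Adipocyte genes were higher for 2 of 5, with *Adipoq*, the fat hormone adiponectin, at 5.28, 1.71 and 5.49 FPKM against 1.18, 1.23 and 0.127 FPKM, and the count was 0 without *Ldha*-null tumor 5. *Pecam1*, of vessels, was at 17.8, 27.4 and 21.4 FPKM against 17.5, 17.0 and 11.5 FPKM. Of the 10 endothelial genes, however, 0 had an unadjusted p under 0.05, and the groups did not overlap for 1 gene in each direction. Their summed levels overlapped, at 110 to 152 FPKM in keratin-retaining and 108 to 131 FPKM in keratin-poor tumors.

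**Figure D4:**
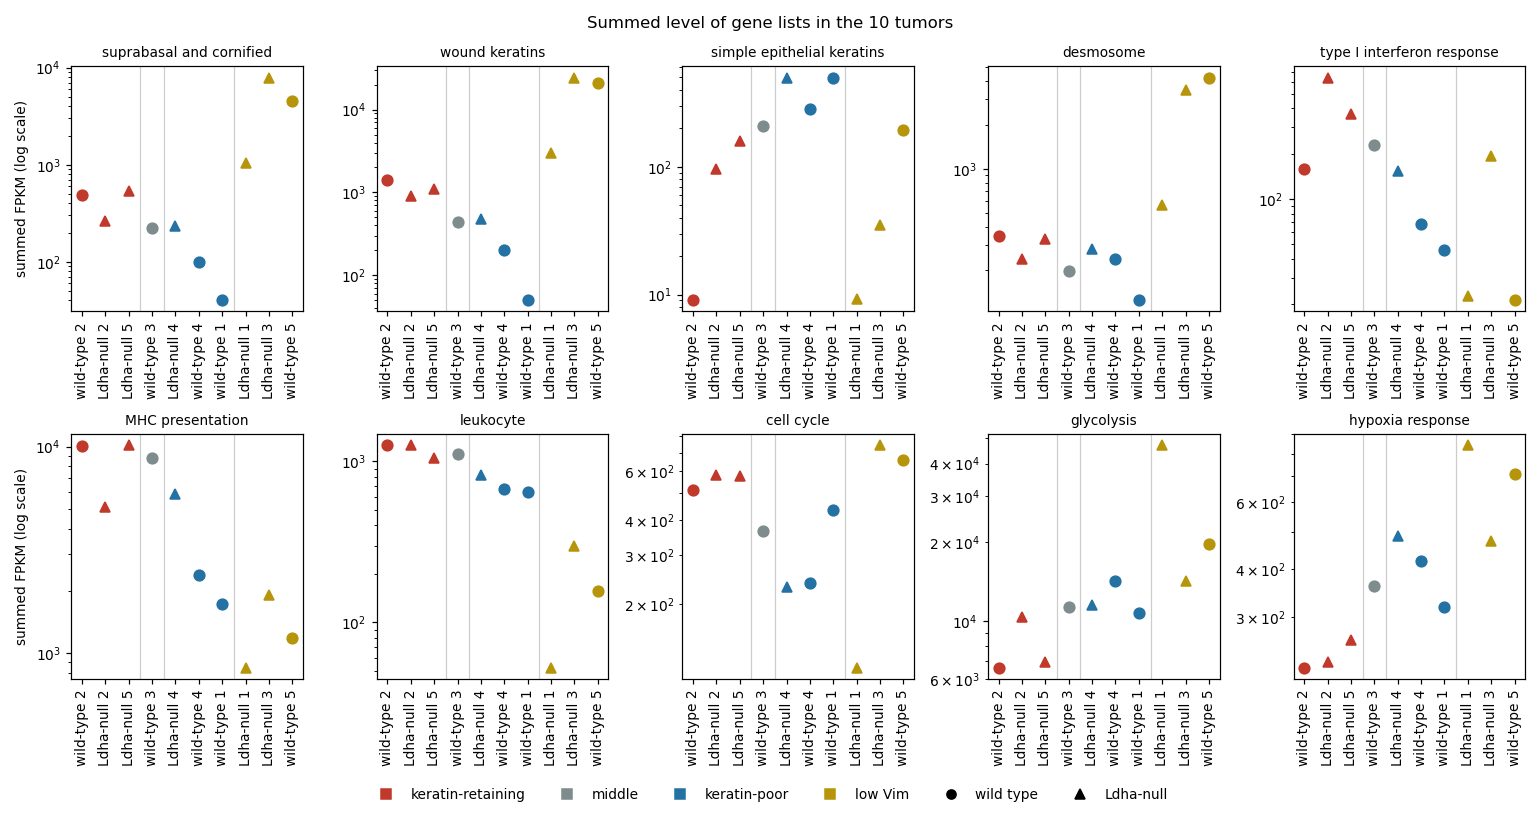
Summed FPKM (log axis) of 10 gene lists in each of the 10 tumors, in the tumor order of the marker plot, color giving the group and shape the genotype label. Leukocyte genes (1056 to 1262 against 645 to 827 FPKM) and hypoxia genes (222 to 261 against 320 to 487 FPKM) do not overlap between keratin-retaining and keratin-poor tumors, and MHC genes do.

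Proliferation genes were higher in the keratin-retaining tumors. All 12 cell cycle genes were positive, 8 at an unadjusted p under 0.05, with a median of 0.84. *Top2a*, the topoisomerase of dividing cells, was at 110, 115 and 109 FPKM against 39.4, 33.6 and 59.2 FPKM (log2 fold change 1.24 ± 0.24, adjusted p = 0.118 by edgeR). *Mki67* was at 10.7, 14.4 and 16.9 FPKM against 4.19, 4.09 and 8.99 FPKM, and *Mcm5*, a subunit of the replicative helicase, at 10.6, 23.5 and 10.8 FPKM against 5.42, 5.17 and 6.34 FPKM. The keratin-retaining tumors were close to each other in *Top2a*, and wild-type tumor 1 was the highest of the keratin-poor tumors in all 3 genes. The mitotic motor *Kif15*, at 4.20, 3.95 and 3.88 FPKM against 1.35, 1.12 and 1.05 FPKM, and the spindle checkpoint kinase *Ttk*, at 7.57, 9.12 and 9.19 FPKM against 2.53, 2.06 and 2.92 FPKM, were among the 10 smallest p in their direction. The list count was 4 without *Ldha*-null tumor 4 or wild-type tumor 4, and 5 without *Ldha*-null tumor 2, *Ldha*-null tumor 5 or wild-type tumor 2. When *Krt14* was fitted as a continuous level over all 7 tumors the count was 2 and the median 0.40, the middle tumor having *Top2a* at 67.6 FPKM.

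Glycolysis lay the other way. Of 14 enzymes and transporters 8 were lower and 0 higher in keratin-retaining tumors, with values below 0 for 13 and a median of -0.76. *Ldha* (ENSMUSG00000063229, chr7:46841475-46855627), which converts pyruvate to lactate, was at 340, 246 and 324 FPKM against 542, 589 and 390 FPKM without overlap (log2 fold change -0.86 ± 0.24, adjusted p = 0.188 by edgeR). The keratin-retaining group held 2 tumors labelled *Ldha*-null and the keratin-poor group 1, and with genotype as a covariate the value was -0.83. *Aldoa* (aldolase) was at 753, 792 and 885 FPKM against 1375, 1286 and 1247 FPKM, *Gpi1* at 247, 297 and 270 FPKM against 469, 433 and 389 FPKM, and *Pgam1* at 164, 206 and 159 FPKM against 278, 333 and 264 FPKM. The middle tumor sided with the keratin-poor tumors for *Aldoa* at 1455 FPKM and *Gpi1* at 456 FPKM, and with neither for *Pgam1* at 221 FPKM. The count of lower genes was 5 without *Ldha*-null tumor 5, wild-type tumor 2 or wild-type tumor 4, 12 without *Ldha*-null tumor 2, and 2 with *Krt14* as a continuous level.

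Hypoxia-induced genes shared this side, all 10 being negative and 4 lower, with a median of -0.69. *Bnip3*, a mitophagy receptor, was at 39.0, 41.9 and 53.0 FPKM against 107, 131 and 92.7 FPKM, with the middle tumor at 91.6 FPKM (log2 fold change -1.42, adjusted p = 0.0864 by edgeR). *Slc16a3* (MCT4), a lactate exporter, was at 18.1, 27.5 and 17.4 FPKM against 97.4, 61.8 and 19.2 FPKM, the last of these in wild-type tumor 1 being within the range of the keratin-retaining tumors. The hypoxia count was 1 if *Ldha*-null tumor 4 was left out and 2 if wild-type tumor 4 was. *Ddit4* (REDD1), a stress-induced inhibitor of mTORC1, was at 22.3, 32.7 and 24.7 FPKM against 91.9, 115 and 104 FPKM, 4.19-fold more in the keratin-poor tumors (log2 fold change -2.07 ± 0.24, adjusted p = 0.0721). The metallothioneins, which bind zinc and copper, were named after their values were seen. *Mt1* was at 479, 351 and 600 FPKM against 1226, 1978 and 1533 FPKM and *Mt2* at 579, 465 and 840 FPKM against 1421, 2459 and 2240 FPKM, without overlap (log2 fold changes -1.86 and -1.83).

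The windows of *Bnip3* (chr7:138909457-138909756, minus strand) and *Mt1* (chr8:94178839-94179138, plus strand) are shown because these genes head their groups and carry the letters of their known regulators. ACGTG, the core that hypoxia-inducible factor recognizes, was present on either strand in 7 of 8 hypoxia genes and 9 of 14 glycolysis genes with a window, against 19.6% of all windows. TGCNCNC, the core of the metal response element that MTF1 binds, was present in 51% of all windows and so marks *Mt1* little. It was also present in 7 of 8 hypoxia, 12 of 14 glycolysis and 4 of 9 interferon genes with a window. A share above that of all windows was thus not particular to ACGTG in the hypoxia and glycolysis lists. Capitals give the 2 overlapping matches of ACGTG on opposite strands in *Bnip3* and the 3 of TGCNCNC in *Mt1*.
Bnip3: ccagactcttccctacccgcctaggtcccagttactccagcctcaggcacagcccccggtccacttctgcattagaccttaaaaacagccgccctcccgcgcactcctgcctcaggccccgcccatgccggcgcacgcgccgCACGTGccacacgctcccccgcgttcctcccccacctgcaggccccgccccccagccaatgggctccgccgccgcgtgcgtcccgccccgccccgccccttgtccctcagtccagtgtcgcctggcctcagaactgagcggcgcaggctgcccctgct
Mt1: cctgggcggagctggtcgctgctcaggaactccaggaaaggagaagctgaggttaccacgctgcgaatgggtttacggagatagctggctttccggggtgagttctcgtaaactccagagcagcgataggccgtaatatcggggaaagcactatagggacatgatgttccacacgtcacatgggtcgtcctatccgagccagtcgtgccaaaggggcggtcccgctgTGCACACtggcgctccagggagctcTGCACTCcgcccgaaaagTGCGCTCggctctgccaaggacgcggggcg
Whether these letters act in the tumors was not tested.

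The genes with the smallest p on the keratin-poor side were mostly outside the listed programs. *Bmp6* (ENSMUSG00000039004), a ligand of the BMP family, had the smallest p of all genes and was at 0.650, 0.817 and 0.981 FPKM against 8.73, 15.3 and 8.11 FPKM, 14.3-fold more in the keratin-poor tumors (log2 fold change -3.83 ± 0.38, adjusted p = 0.0690 by edgeR). *Gfpt2*, which opens the hexosamine pathway and is known from mesenchymal cells, was at 4.17, 4.43 and 3.34 FPKM against 37.3, 19.4 and 20.3 FPKM. *Ube2ql1*, of the ubiquitin-conjugating enzyme family, was at 0.407, 0.195 and 0.724 FPKM against 34.7, 38.1 and 5.99 FPKM, and *Zfhx4*, a zinc finger and homeobox factor, at 0.0987, 0.315 and 0.0952 FPKM against 2.19, 4.84 and 3.0 FPKM. *Prl2c2* (proliferin), from a cluster of near-identical copies that makes its counts uncertain, was at 35.3, 19.2 and 25.5 FPKM against 94.8, 113 and 156 FPKM. The middle tumor had the most *Prl2c2* of all, 237 FPKM, but only 1.09 FPKM of *Ube2ql1* and 0.0559 FPKM of *Zfhx4*, so it took a different side from gene to gene. In all 20 genes chosen by smallest p, 10 per direction, the groups did not overlap, and the adjusted p by edgeR was 0.0690 to 0.105. DESeq2 and limma-voom both called each. Because these genes were chosen by a small p in the same libraries, neither the lack of overlap nor these calls are separate evidence.

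**Figure D5:**
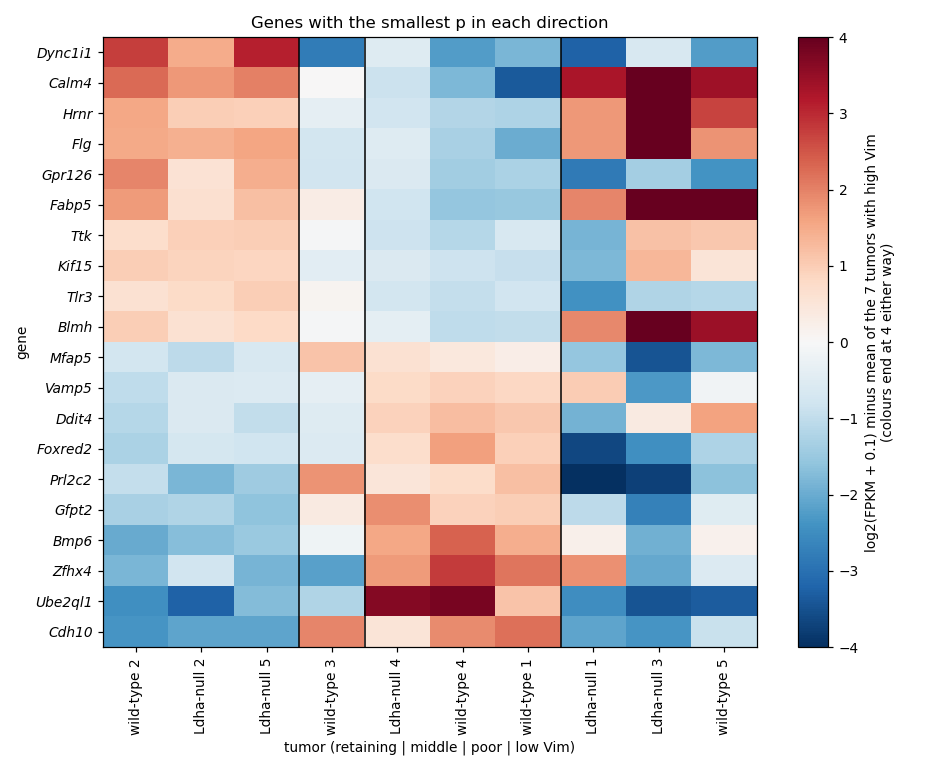
Heat map of the 20 genes chosen by smallest p, 10 per direction, as log2(FPKM + 0.1) minus the mean of the 7 tumors with high *Vim*, in the 10 tumors (columns, lines separating keratin-retaining, middle, keratin-poor and low *Vim*). The groups on either side of the middle tumor do not overlap in these genes because they were chosen for a small p, and the middle tumor is like one side in some genes and like the other in the rest.

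Ligands and alarm genes differed one by one. Of 12 tested antimicrobial and alarm genes of keratinocytes 6 were higher and 1 lower. *Il1f6* (IL-36 alpha) was at 3.70, 1.28 and 6.23 FPKM against 0.442, 0.249 and 0 FPKM, and *Tslp*, a cytokine of stressed epidermis, at 10.2, 4.96 and 24.2 FPKM against 3.08, 1.40 and 1.33 FPKM. The gene that was lower, *Cxcl1*, a neutrophil attractant, was at 21.9, 9.66 and 8.65 FPKM against 40.7, 102 and 46.4 FPKM (log2 fold change -2.36, adjusted p = 0.128 by edgeR). Without wild-type tumor 4 the higher alarm genes were 3. Among 10 EGF receptors and ligands 2 were higher and 2 lower: the ligand *Hbegf* was at 16.1, 15.7 and 19.0 FPKM against 31.1, 27.2 and 31.9 FPKM, and the receptor *Erbb3* at 2.01, 1.27 and 1.97 FPKM against 1.02, 0.517 and 0.406 FPKM. In the TGF-beta list 3 of 12 were higher and 3 lower, with a negative log2 fold change for 7 and a median of -0.49. Its receptor *Tgfbr1* went against that median, at 26.7, 29.7 and 32.3 FPKM against 17.1, 15.6 and 17.5 FPKM. Without *Ldha*-null tumor 2 the lower genes of that list were 6. Of 13 tested Notch and Wnt genes of epidermis 2 were higher and 2 lower, with a median of -0.07. *Wnt10a*, a Wnt ligand of epidermis and follicle, was lower, at 19.9, 13.9 and 13.8 FPKM against 47.8, 61.0 and 28.1 FPKM. The 2 that were higher were *Axin2*, at 14.3, 6.92 and 7.98 FPKM against 5.42, 3.52 and 2.91 FPKM, and *Wnt4*, at 9.04, 4.01 and 4.96 FPKM against 2.80, 2.74 and 1.18 FPKM. None of these genes overlapped. Of 12 hair follicle stem cell genes 3 were lower and 0 higher, with a median of -0.41; *Sox4* was at 17.2, 29.4 and 26.3 FPKM against 56.7, 53.1 and 32.6 FPKM, and *Cd34*, the surface marker of bulge stem cells and of vessels, at 92.3, 69.1 and 107 FPKM against 107, 130 and 106 FPKM.

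The middle tumor was used in no group, and its place is given as a description. Of the 1209 genes that were higher, it lay nearer the keratin-poor mean in 602 (49.8%), and of the 1165 that were lower it did so in 582 (50%). Its *Krt14* of 663 FPKM was nearest to that of *Ldha*-null tumor 4, yet its summed MHC genes, 8830 FPKM, lay within the keratin-retaining range of 5069 to 10155 FPKM, and its glycolysis genes, 11313 FPKM, within the keratin-poor range of 10705 to 14176 FPKM.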

How the data were processed

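Total RNA of whole tumors was enriched for poly(A), made into libraries that are not described as strand-specific, and sequenced on a HiSeq2500, with base calling by CASAVA 1.8 and alignment to mm10 with TopHat2. The authors counted reads per gene with HTSeq (union mode), and these counts are deposited as whole numbers, and FPKM values were computed by the authors from them. For TopHat2, HTSeq and the annotation, the version is not given in the sources used. Each table lists 35275 genes. FPKM served only to choose the tumors and to give levels. The series description tells of 10 mice, and the paper reports more sequenced tumors per genotype than the series holds. The members and gene lists were chosen with earlier results of these data known.

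Counts of the 6 tumors in both groups were compared with edgeR 4.0.16 under R 4.3.3 (filterByExpr at min.count 10 and min.total.count 15, TMM, glmQLFit, glmQLFTest, no covariate), with Benjamini-Hochberg adjustment over 15530 genes at a threshold of 0.05. *Krt14* and *Vim* were left out. SE is from the quasi-likelihood fit. The biological coefficient of variation was 34.8%, far above counting error for genes with many counts, at total counts of 12969508 to 17694201. For genes with few counts the counting error is larger, as for *Krt78* and *Krt76*, whose lowest counts among the 7 tumors were 3 and 4. The script was tested on simulated data. Genes named are the markers, the 10 with the smallest p in each direction (predicted genes skipped), at most 4 genes per list by smallest p, listed keratins and *Ldha*; some that meet the rule are not reported. Of the listed symbols 3 were not matched. Alternatives used DESeq2 1.42.0, limma 3.58.1 (voom), other scaling and filters, genotype as a covariate, *Krt14* as a continuous level, and each tumor left out. Promoter windows are from RefSeq (GRCm38.p6).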

Additional observations from a re-analysis of the deposited data

Results flagged for a closer look

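Among the 90 genes examined over the 7 tumors with high *Vim*, 3 had 1 tumor whose gap to the next, as a share of the whole range of log2 CPM, was above the Dixon limit of 0.568. A rate of 1 in 20 would give about 4. That rate holds for genes not chosen by their values, and many of these were chosen by a small p, so it cannot measure chance here. *Krt17* was at 19.7 FPKM in wild-type tumor 1, while the others ranged from 131 to 520 FPKM (ratio 0.619). *Krt8* was at 1.62 FPKM in wild-type tumor 2 and at 83.4 to 431 FPKM in the others (ratio 0.709). *Xist* was at 0.112 FPKM in wild-type tumor 1 and at 33.2 to 116 FPKM in the others (ratio 0.815).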

How the results depend on the processing

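The count of genes at an adjusted p under 0.05 depended on the method: 0 by edgeR, with RLE factors, a mean CPM of at least 5 or genotype as a covariate, but 3 with upper-quartile factors, 26 with *Krt14* as a continuous level over 7 tumors, 110 with no filter, 691 by DESeq2 and 741 by limma-voom; the cause was not tested. With each tumor left out the count was 0 to 97, being 97 if wild-type tumor 1, the tumor with low *Xist*, was left out and 23 if *Ldha*-null tumor 2 was. At an unadjusted p under 0.05 the counts by limma-voom were 1911 higher and 2008 lower. Leaving out tumors gave 727 to 1515 higher and 651 to 1447 lower genes, with 804 and 651 without wild-type tumor 2 and 727 and 692 without wild-type tumor 4, fits that have fewer samples. Upper-quartile scaling moved the median of all genes to 0.05. Of 1248 values of 90 named genes under 14 alternatives 1053 kept direction and side of the threshold, 189 kept direction and passed it, and 6 changed sign, all of keratins that passed no threshold. With each tumor left out *Krt15* was -0.26 to 0.96, *Krt75* -1.66 to 1.97 and *Krt80* -0.52 to 0.10. With genotype as a covariate *Krt75* was -0.012 and *Krt77* -0.72, and by limma-voom *Krt77* was -0.82. Of 574 list medians 43 moved by more than the spread between tumors. No paired analysis was possible because the keratin-retaining and keratin-poor tumors share 0 replicate numbers. With 3 tumors a group, whose p-values measure the spread between these tumors, small differences were not detectable.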
